A study of Mus musculus with 15 samples.

Results

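The 7 genes of the core Hedgehog pathway, *Shh*, *Ptch1*, *Smo*, *Gli1*, *Gli2*, *Gli3* and *Hhip*, were followed in mouse skin after wounds were filled with printed Matrigel beads. They were picked by gene symbol out of the 18929 genes of the table, and each symbol occurred in it. All 7 passed the filter on low counts that left 15369 genes for testing.

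Bulk RNA was sequenced from 15 skin samples in 5 groups of 3. All were labelled wild type (WT), and the study used male balb/c mice of 4 to 6 weeks for the wounds. A full-thickness excision of 10 mm or 15 mm was filled either with Matrigel beads that held no cells (acellular) or with HDB, in which Matrigel beads densely loaded with mesenchymal stem cells (MSC) were printed sparsely among acellular beads that filled the remaining area. The fifth group was labelled normal skin under normal growth, for which no age or time is given in the sources used here. For the wounds the sources name both 4 weeks of implantation and day 21, so the time of sampling is known only to that extent. The MSC came from human umbilical cord and the table lists mouse genes, so transcripts of the implanted cells were not measured as such. Nothing in the labels says that the 3 samples of a group came from separate mice, and the p-values measure the spread between these samples only.

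Hedgehog signalling starts when a secreted ligand such as Shh binds its receptor Ptch1. Unbound, Ptch1 holds the membrane protein Smo inactive. Ligand binding frees Smo, which acts in the primary cilium to stop the processing of full-length Gli2 and Gli3 into truncated repressors and lets the full-length proteins act as activators. *Ptch1*, *Gli1* and *Hhip* are themselves transcribed in response, so their transcripts are widely read as a sign of pathway activity, and both Ptch1 and the ligand-binding decoy Hhip then damp the signal. In skin, Shh is made by the epithelium of growing hair follicles and drives their downgrowth and the proliferation of matrix cells.

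Total counts ran from 15840551 to 18404188 per library. Epidermal and dermal fibroblast markers were present in every library, with summed levels of 5309 to 15862 and of 3416 to 23973 CPM (TMM-scaled counts relative to the size of the library), and none of their genes was at 0. Replicates correlated least within the acellular 15 mm group (Pearson r on log2 CPM across genes of 0.853 to 0.921) and most in normal skin (0.983 to 0.989). Acellular 15 mm replicate 1 stood apart by its high hair matrix, hair shaft and inner root sheath transcripts. Its summed level of follicle stem and outer root sheath genes, 1066 CPM, was the lowest of any library. The differences of members that this library moved most are given with and without it.

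The levels of the 7 genes differed widely when expressed per kilobase of the longest annotated transcript. *Smo* was the most abundant with a mean over all libraries of 27.7 CPM per kb, followed by *Gli1* at 5.84, *Ptch1* at 4.79, *Gli3* at 3.26, *Gli2* at 3.02, *Shh* at 1.34 and *Hhip* at 0.698. This order was not that of every group, and in normal skin *Ptch1* (3.85) lay above *Gli1* (3.13) and *Hhip* (0.348) above *Shh* (0.207). *Hhip* was also above *Shh* in the HDB groups, at 0.680 against 0.588 in HDB 10 mm and 0.387 against 0.196 in HDB 15 mm. *Gli2* was above *Gli3* in HDB 15 mm (3.86 against 2.45) and by little in normal skin (1.73 against 1.69). *Smo* also varied least, 1.67-fold between its lowest and highest library. *Shh* varied most, 477-fold, from 1 count in acellular 15 mm replicate 3 to 447 counts in acellular 15 mm replicate 1.

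Promoter sequence is shown for *Smo* and *Gli3*, which were called higher than in normal skin in the tests given further on and whose RefSeq start sites coincide with the outer bound of the gene. Each run holds the 250 bases upstream of that start in the RefSeq assembly GRCm38.p6, read 5′ to 3′ on the strand of the gene, with CG dinucleotides in capitals. The *Smo* window is chr6:29735247-29735496 and the *Gli3* window is chr13:15463473-15463722, both on the plus strand.
Smo: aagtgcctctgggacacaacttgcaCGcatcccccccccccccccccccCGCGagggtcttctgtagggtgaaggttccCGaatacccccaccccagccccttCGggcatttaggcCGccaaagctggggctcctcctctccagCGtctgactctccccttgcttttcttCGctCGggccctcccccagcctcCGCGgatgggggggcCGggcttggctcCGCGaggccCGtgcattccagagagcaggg
Gli3: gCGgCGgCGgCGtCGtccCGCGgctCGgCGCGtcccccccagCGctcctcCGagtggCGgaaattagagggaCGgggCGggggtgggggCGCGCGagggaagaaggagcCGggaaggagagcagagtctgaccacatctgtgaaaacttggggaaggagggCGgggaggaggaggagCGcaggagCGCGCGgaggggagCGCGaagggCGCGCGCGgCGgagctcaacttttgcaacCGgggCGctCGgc
The *Smo* window held 15 CG dinucleotides at a GC content of 68.4%, and the *Gli3* window held 34 at 72.8%. The windows of *Ptch1*, *Gli2* and *Hhip* held 41, 22 and 28, whereas the median over the 32851 mouse windows of this length was 6 with a GC content of 52.4%. The consensus motif of Gli proteins, GACCACCCA or its reverse complement TGGGTGGTC, was searched on both strands. It was found in 0 of the 5 member windows and in 74 of all windows (0.225%). *Shh* and *Gli1* had no window in the RefSeq table.

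The ligand *Shh* (Entrez 20423, chr5:28456840-28467101, GRCm38) was low in 12 of the 15 libraries and high in 3 that came from 3 different groups. Normal skin gave 0.562, 0.937 and 0.268 CPM. Acellular 10 mm wounds gave 0.457, 0.393 and 21.7 CPM, and HDB 10 mm wounds gave 0.414, 0.108 and 4.50 CPM. A single replicate thus stood high in either 10 mm group, and the others overlapped with normal skin or lay below it. Acellular 15 mm wounds gave 25.3, 0.875 and 0.0531 CPM, and HDB 15 mm wounds gave 0.628, 0.424 and 0.621 CPM. The high libraries were therefore acellular 15 mm replicate 1 (447 counts), acellular 10 mm replicate 3 (372 counts) and HDB 10 mm replicate 3 (81 counts), and the other 12 held 1 to 15 counts. The third highest level was 4.80-fold above the fourth. In bulk skin, fewer *Shh*-expressing cells and less *Shh* RNA per cell cannot be told apart.

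The receptor and pathway target *Ptch1* (Entrez 19206, chr13:63508328-63573460) was highest in the same 3 libraries and in the same order as *Shh*. It was at 146, 83.5 and 68.7 CPM there and between 28.3 and 43.5 CPM in the other 12 libraries. By group, normal skin gave 35.7, 42.7 and 41.4 CPM and HDB 15 mm gave 38.7, 35.9 and 34.7 CPM, the 2 groups with the narrowest spread. Acellular 10 mm gave 33.1, 28.3 and 83.5 CPM, HDB 10 mm gave 43.4, 28.7 and 68.7 CPM, and acellular 15 mm gave 146, 43.5 and 42.2 CPM. Beside their high replicate, the other libraries of these 3 groups lay at 28.3 to 43.5 CPM, around the 35.7 to 42.7 CPM of normal skin.

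*Hhip* (Entrez 15245, chr8:79965850-80058060), the membrane-bound decoy that binds the ligand, followed the same order. It reached 21.7 CPM in acellular 15 mm replicate 1, 15.7 CPM in acellular 10 mm replicate 3 and 8.0 CPM in HDB 10 mm replicate 3, against 1.86 to 6.01 CPM elsewhere. Normal skin gave 3.65, 1.87 and 3.96 CPM. The remaining wound libraries were at 3.60 and 5.05 CPM in acellular 10 mm, 5.50 and 5.00 CPM in HDB 10 mm, 6.01 and 4.46 CPM in acellular 15 mm, and 3.71, 4.97 and 1.86 CPM in HDB 15 mm. All 3 HDB 10 mm libraries lay above all 3 HDB 15 mm libraries, by as little as 5.00 against 4.97 CPM.

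*Gli1* (Entrez 14632, chr10:127329882-127341579), the transcriptional activator that is itself a target, was the third member with this order. It was at 56.6, 53.4 and 41.3 CPM in the libraries that ranked highest for *Shh*, and at 10.2 to 22.5 CPM in the rest. Normal skin gave 10.2, 14.5 and 13.3 CPM, acellular 10 mm gave 17.1 and 18.4 CPM beside its high library, and HDB 10 mm gave 20.0 and 13.1 CPM. Acellular 15 mm gave 22.5 and 20.3 CPM beside its high library, and HDB 15 mm gave 20.2, 18.1 and 16.2 CPM. Every wound library except HDB 10 mm replicate 2 was above the 3 normal libraries.

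The signal transducer *Smo* (Entrez 319757, chr6:29735497-29761366) did not follow *Shh*. Its levels were 83.0, 92.3 and 74.7 CPM in normal skin, 124, 105 and 122 CPM in acellular 10 mm, and 108, 116 and 104 CPM in HDB 10 mm. They were 121, 120 and 115 CPM in acellular 15 mm and 111, 86.1 and 88.3 CPM in HDB 15 mm. The acellular groups and HDB 10 mm did not overlap with normal skin, whereas HDB 15 mm did. HDB 10 mm replicate 3 ranked 3 of 15 for *Shh* and 10 of 15 for *Smo*.

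*Gli2* (Entrez 14633, chr1:118834061-119054405), the main activator downstream of Smo, had its highest group means in the 15 mm wounds and did not follow *Shh*. It was at 10.4, 13.0 and 11.0 CPM in normal skin, 19.6, 11.9 and 17.7 CPM in acellular 10 mm and 16.4, 11.5 and 20.2 CPM in HDB 10 mm. It was at 30.3, 43.4 and 18.5 CPM in acellular 15 mm and at 30.3, 19.3 and 27.3 CPM in HDB 15 mm, both wholly above normal skin. Its highest library was acellular 15 mm replicate 2, in which *Shh* was at 0.875 CPM. The difference between wound sizes was not itself tested within a treatment.

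*Gli3* (Entrez 14634, chr13:15463723-15730026), known mostly as the repressor of the pathway, was above normal skin in every one of the 12 wound libraries. Normal skin gave 13.8, 14.7 and 12.8 CPM. Acellular 10 mm gave 32.4, 19.5 and 27.8 CPM, HDB 10 mm gave 20.4, 21.5 and 22.6 CPM, and HDB 15 mm gave 20.3, 18.5 and 21.2 CPM. Acellular 15 mm gave 103, 28.5 and 22.4 CPM, so that replicate 1 stood alone above the 32.4 CPM of the next library of any group. Apart from that library its ranks did not follow *Shh*.

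**Figure D1:**
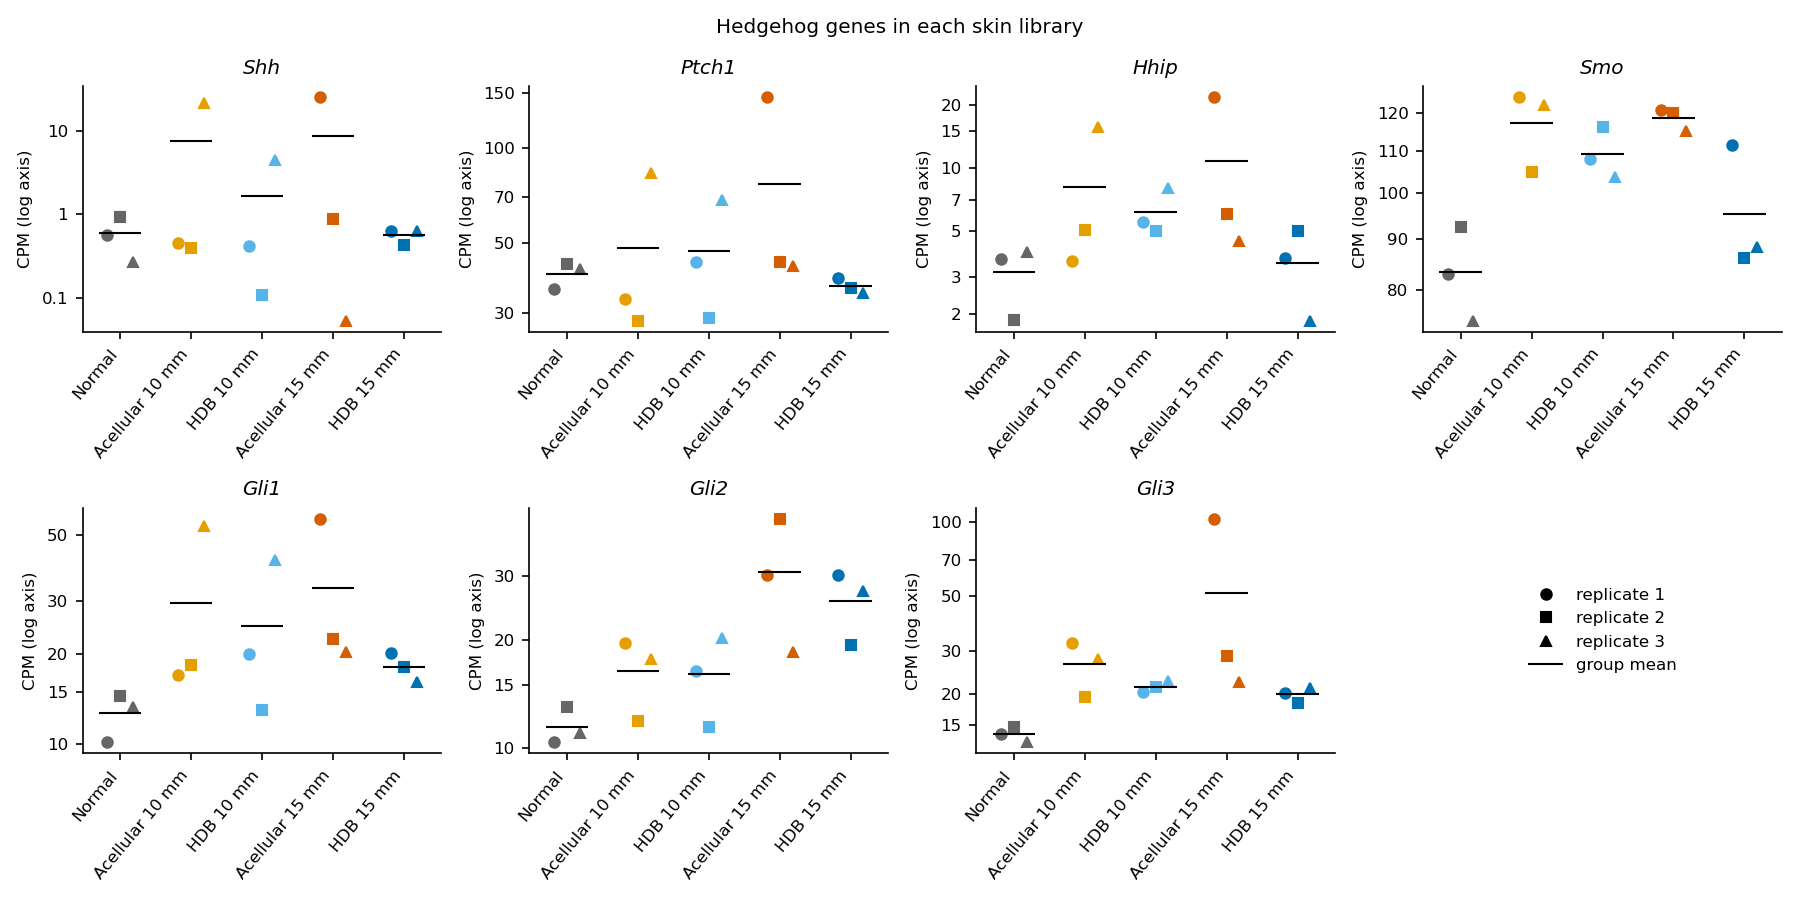
Levels of the 7 genes in each library in CPM on a log axis, with 1 point per library, the marker giving the replicate number and the line giving the mean of the 3 libraries of a group. *Shh*, *Ptch1*, *Hhip* and *Gli1* each show 1 high library in acellular 10 mm, HDB 10 mm and acellular 15 mm, whereas *Smo* separates most wound libraries from normal skin.

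By group means, all 7 genes were highest in acellular 15 mm. For 6 of the 7, acellular 10 mm and HDB 10 mm followed, and the exception was *Gli2*, for which HDB 15 mm came next. *Shh* averaged 8.75 ± 14.4 CPM in acellular 15 mm (SD, n = 3) and 0.558 ± 0.116 CPM in HDB 15 mm (SD, n = 3). The SD above the mean in the first of these reflects its single high library. Neighbouring groups in this order overlapped for every gene, except that HDB 15 mm lay wholly above normal skin for *Gli1* and *Gli3*, and HDB 10 mm wholly above HDB 15 mm for *Hhip*. The share of all genes with separated ranges is not given, here or for the separations from normal skin described above. Such separation is therefore not read as a result about the members. In HDB 15 mm against normal skin 26.9% of all genes were at an unadjusted p under 0.05 (edgeR).

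The shared order of *Shh*, *Ptch1*, *Gli1* and *Hhip* was the clearest pattern among the members. Of the 15 libraries, each was highest in acellular 15 mm replicate 1, next in acellular 10 mm replicate 3 and then in HDB 10 mm replicate 3. The third level exceeded the fourth by 1.58-fold for *Ptch1*, 1.84-fold for *Gli1* and 1.33-fold for *Hhip*. The other 3 genes did not share it, since these libraries ranked 1, 4 and 5 for *Gli3*, 2, 9 and 5 for *Gli2* and 3, 2 and 10 for *Smo*. Total counts of the 3 libraries (18404188, 17064008 and 16652756) spanned those of all 12 wound libraries, the first being the highest and the last the lowest. The libraries were noticed by their values and belong to 3 groups, so no test was made between them and the rest. The summed level of 6 proliferation genes was highest in the same 3 libraries and in the same order (1382, 590 and 440 CPM). The order was thus not particular to these members, and the share of all genes with it is not given.

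Among the genes most like *Shh* in log2 CPM over the 15 libraries were *Poli* (Pearson r = 0.866, Spearman rho = 0.650) and the melanocyte receptor *Mc1r* (r = 0.856, rho = 0.518). The lower rho goes with the 12 libraries of low *Shh*, among which the order rested on few counts. Those like *Ptch1* included *Scube1* (r = 0.946) and the hyaluronan synthase *Has3* (r = 0.925). For *Gli1* the closest genes were *Scube3* (r = 0.921), the cartilage proteoglycan *Acan* (r = 0.916) and *F5* (r = 0.906), and for *Hhip* they were *Pphln1* (r = 0.952), *Rad21* (r = 0.919) and *Ckap5* (r = 0.915). *Gli2* was closest to *Map3k15* (r = 0.955), the Fused kinase *Stk36* (r = 0.946) and *Orai2* (r = 0.935). *Gli3* was closest to *Eri1* (r = 0.988), *Eftud2* (r = 0.983) and *Sfpq* (r = 0.983), and *Smo* to *Mta3* (r = 0.947), *Cdc42bpg* (r = 0.946) and *Adgrl2* (r = 0.928). These values are descriptions over 15 libraries that share their groups and wound states.

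**Figure D2:**
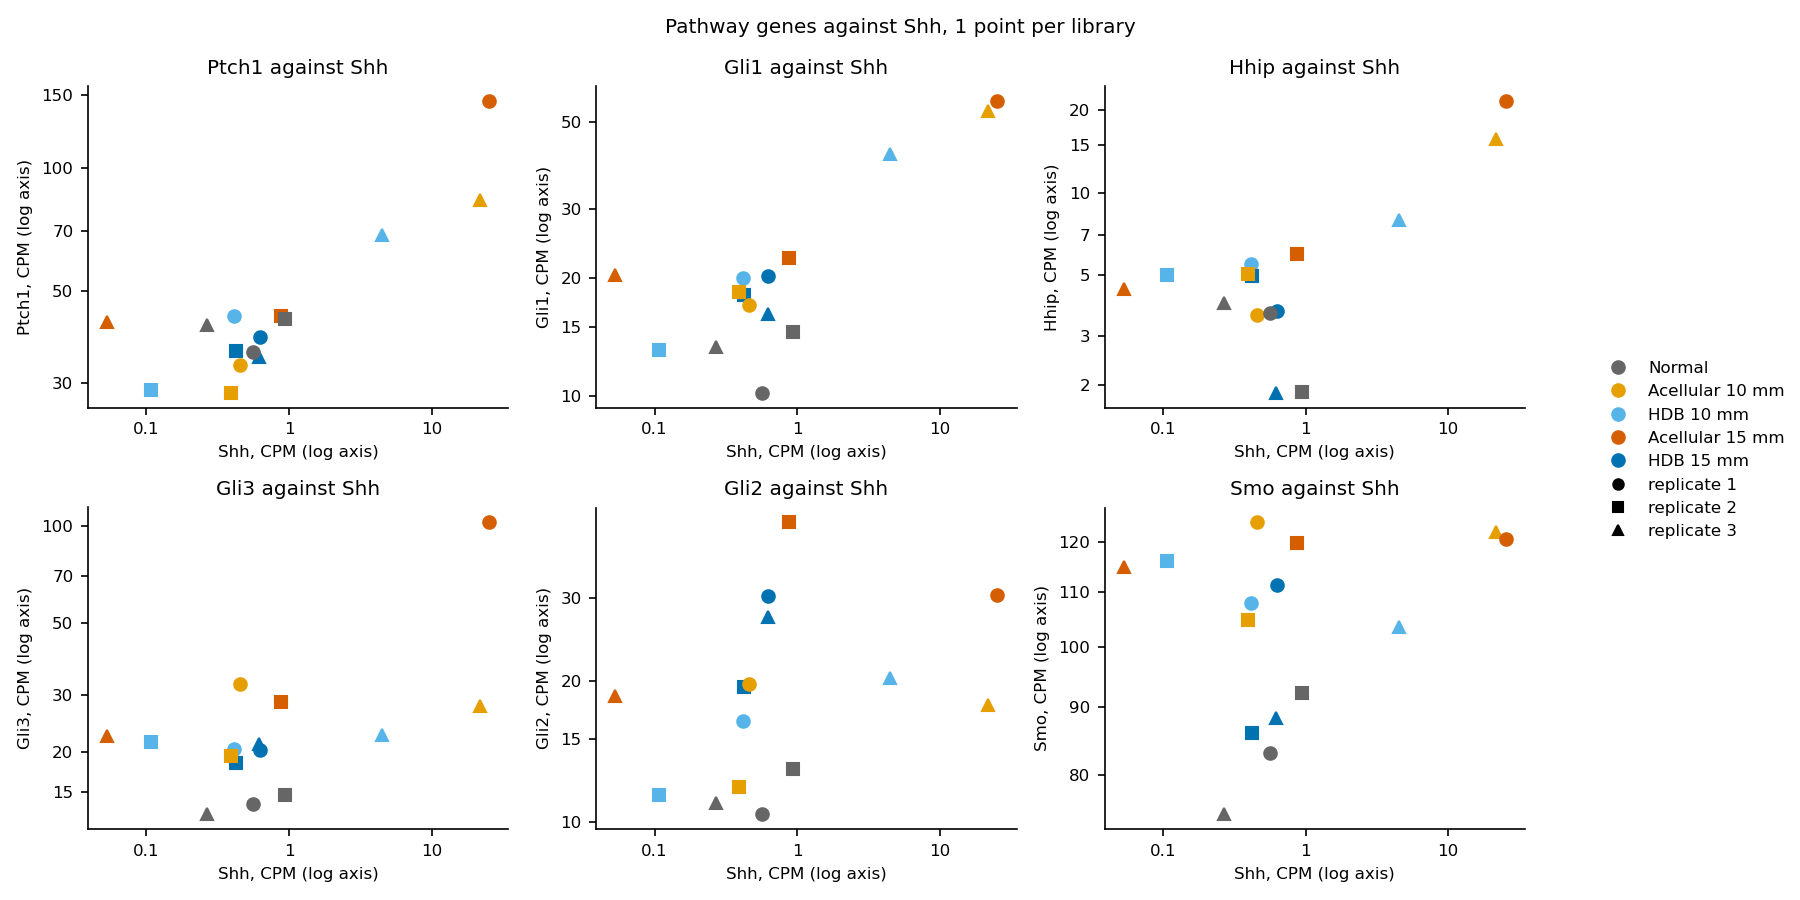
CPM of *Ptch1*, *Gli1*, *Hhip*, *Gli3*, *Gli2* and *Smo* against CPM of *Shh*, both on log axes, with 1 point per library, the colour giving the group and the marker the replicate number. In the panels of *Ptch1*, *Gli1* and *Hhip* the libraries with *Shh* at 4.50, 21.7 and 25.3 CPM lie above the other 12, and in the panels of *Gli3*, *Gli2* and *Smo* they are spread among them, apart from *Gli3* at 103 CPM in acellular 15 mm replicate 1.

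Markers of growing hair follicles moved with *Shh* in part only. The summed level of 11 hair matrix and hair shaft genes was 12824 CPM in acellular 15 mm replicate 1, the highest of all, and 234 CPM in acellular 10 mm replicate 3. HDB 10 mm replicate 3, with *Shh* at 4.50 CPM, had a sum of 33.5 CPM, rank 9 of 15 and within the 27.3 to 36.6 CPM of its group. In contrast, acellular 15 mm replicate 2 and acellular 10 mm replicate 1 had sums of 1195 and 579 CPM with *Shh* at 0.875 and 0.457 CPM, and HDB 15 mm replicate 1 had 490 CPM with *Shh* at 0.628 CPM. Normal skin had 10.7 to 13.8 CPM, with the hair keratins *Krt33b*, *Krt81*, *Krt83* and *Krt86* at 0 in all 3 libraries and *Krt34* at 0 in 2.

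Inner root sheath transcripts showed the same picture. Their 8-gene sum was 13339 CPM in acellular 15 mm replicate 1, 532 CPM in acellular 10 mm replicate 3 and 161 CPM in HDB 10 mm replicate 3, the last of these at rank 10 of 15. It was second highest, at 1472 CPM, in acellular 10 mm replicate 1, a library of low *Shh*. Normal skin ranged from 103 to 132 CPM. The part of follicle content in the levels of *Shh* and its targets was not tested.

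**Figure D3:**
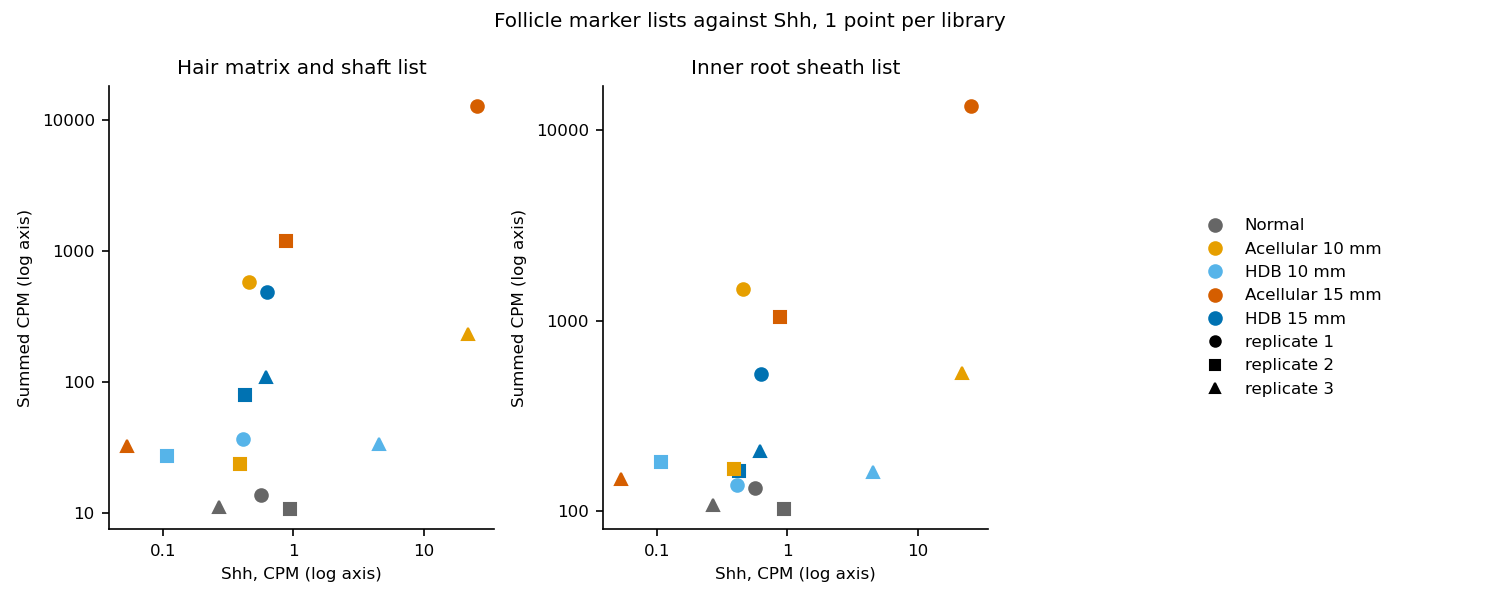
Summed CPM of the hair matrix and shaft list (11 genes) and of the inner root sheath list (8 genes) against CPM of *Shh*, on log axes, with 1 point per library, the colour giving the group and the marker the replicate number. Acellular 15 mm replicate 1 is highest on both axes, HDB 10 mm replicate 3 has high *Shh* at a low sum, and several libraries have high sums at *Shh* below 1 CPM.

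The effect of the printed MSC was addressed by comparing HDB with acellular beads at each wound size. At both sizes the fitted change of all 7 genes was below 0, and none passed the test (edgeR quasi-likelihood test with Benjamini-Hochberg adjustment over all 15369 genes, called at an adjusted p under 0.05). At 10 mm the log2 fold changes were -2.16 ± 1.76 (SE) for *Shh*, -0.39 for *Hhip*, -0.31 for *Gli3*, -0.26 for *Gli1*, -0.10 for *Smo*, -0.04 for *Ptch1* and -0.04 for *Gli2*. Their median was -0.26, beside -0.01 over all genes tested. Of all genes 0 (0%) were called, with 543 at an unadjusted p under 0.05 and 15 called by DESeq2. None of the members was at an unadjusted p under 0.05 in edgeR. DESeq2 gave no adjusted p for *Shh* in any comparison and called none of the other 6 members here. Leaving out acellular 10 mm replicate 3 turned the sign of 5 members, to log2 fold changes of 1.96 for *Shh*, 0.61 for *Ptch1*, 0.48 for *Gli1*, 0.51 for *Hhip* and 0.022 for *Gli2*. *Gli2* also turned when acellular 10 mm replicate 1 (0.11) or HDB 10 mm replicate 2 (0.17) was left out, and *Ptch1* and *Gli1* turned without HDB 10 mm replicate 2 (0.23 and 0.065).

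At 15 mm the differences were larger, with log2 fold changes of -3.95 ± 1.95 (SE) for *Shh*, -1.61 ± 0.67 for *Hhip*, -1.36 ± 0.44 for *Gli3*, -1.08 ± 0.51 for *Ptch1*, -0.87 for *Gli1*, -0.32 for *Smo* and -0.26 for *Gli2*. The median was -1.08, beside 0.0041 over all genes. The smallest adjusted p in edgeR was 0.0977, for *Gli3*, and those of *Smo*, *Hhip*, *Ptch1* and *Shh* were 0.150, 0.175, 0.221 and 0.245. Thus 0 of 7 members were called where 450 genes (2.93%) were called, or 179 with the replicate number as a block. The count over all genes was unsteady. It was 0 when any single HDB 15 mm library was left out, with the length trend removed or with only the groups compared. Without acellular 15 mm replicate 3 it was 2322. *Gli3*, *Smo* and *Hhip* were at an unadjusted p under 0.05, and DESeq2 called *Gli3* alone (adjusted p = 0.0248) of the 6 members with an adjusted p. Over all genes 3567 (23.2%) were at an unadjusted p under 0.05 and DESeq2 called 1792. Leaving out acellular 15 mm replicate 1 changed the values to 0.29 for *Shh*, -0.23 for *Ptch1*, -0.24 for *Gli1*, -0.57 for *Hhip*, -0.35 for *Gli3*, -0.30 for *Smo* and -0.27 for *Gli2*, with 152 of all genes called, whereas without acellular 15 mm replicate 3 *Gli3* was called at -1.72 (adjusted p = 0.0212, edgeR).

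Averaged over both sizes, 0 of 7 members and 0 genes (0%) were called by edgeR, with a median log2 fold change of -0.56 over the members and -0.01 over all genes. *Gli3*, *Smo* and *Shh* were at an unadjusted p under 0.05, as were 2428 of all genes, and DESeq2 called 0 of the 6 members with an adjusted p and 210 genes. Leaving out acellular 15 mm replicate 1 brought the fitted values of *Shh*, *Gli3*, *Gli1* and *Ptch1* from -3.06, -0.83, -0.56 and -0.56 to -0.94, -0.33, -0.25 and -0.14, and left *Hhip* at -0.48 (-1.0 with it). The difference of the HDB effect between 15 mm and 10 mm, tested as an interaction, was called for 0 members and 0 genes (0%), with 0 members and 2063 genes at an unadjusted p under 0.05 and 0 of the 6 members with an adjusted p and 608 genes called by DESeq2. The members' median difference was -1.04, which rested on acellular 15 mm replicate 1. Without that library the difference went from -1.79 to 2.45 for *Shh*, from -1.22 to -0.18 for *Hhip*, from -1.05 to -0.041 for *Gli3*, from -1.04 to -0.19 for *Ptch1* and from -0.61 to 0.021 for *Gli1*. The widest standard error was 2.50 for *Shh*.

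The hair matrix and shaft list and the inner root sheath list lay lower with HDB as well. The follicle stem and outer root sheath list moved less, with median log2 fold changes of -0.36 at 10 mm and -0.01 at 15 mm. So did the dermal papilla list, at -0.11 and -0.18. The median log2 fold change of the hair matrix and shaft genes was -5.51 at 10 mm and -4.83 at 15 mm, and that of the inner root sheath genes was -4.16 and -4.05. None of these genes was called by edgeR at either size or over both. At an unadjusted p under 0.05 were 6 of 11 and 5 of 8 at 10 mm, 10 of 11 and 6 of 8 at 15 mm, and 11 of 11 and 7 of 8 over both sizes, where 2428 of all genes were. DESeq2 called 0 of either list at 10 mm, 4 and 3 at 15 mm, and 8 and 6 over both sizes. Among the other lists, the median of the dermal fibroblast genes was 1.26 at 10 mm and 0.98 at 15 mm. That of the proliferation genes was -0.12 and -1.15, and that of the Schwann cell genes was 0.16 and 1.00. None of their genes was called by edgeR at either size. The part of any of these lists in the differences of the Hedgehog genes was not tested.

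The wound groups were then compared with normal skin, which serves as the control in all 4 comparisons, so their results are not independent. In acellular 15 mm wounds 3 of the 7 members rose. *Gli3* had a log2 fold change of 1.89 ± 0.45 (SE; adjusted p = 0.0107, edgeR), *Gli2* of 1.42 ± 0.31 (adjusted p = 0.00849) and *Smo* of 0.51 ± 0.12 (adjusted p = 0.0113), which are 3.71-fold, 2.68-fold and 1.42-fold. The share of 3 in 7 stood beside 30.2% of all genes called in either direction (4642 genes), a gap smaller than 1 member. The count over all genes was itself unsteady, at 972 with only these groups in the fit and 2304 to 5805 with 1 library left out, lowest without normal replicate 3. *Shh*, *Hhip*, *Gli1* and *Ptch1* had log2 fold changes of 3.88 ± 1.95, 1.76 ± 0.67, 1.38 ± 0.53 and 0.95 ± 0.50 and were not called, with adjusted p of 0.145, 0.0642, 0.0639 and 0.165 in edgeR. DESeq2 called 5 of the 6 members with an adjusted p, adding *Gli1* (adjusted p = 0.0279) and *Hhip* (adjusted p = 0.0258), where it called 5760 of all genes.

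Without acellular 15 mm replicate 1, *Gli3*, *Gli2* and *Smo* stayed called in edgeR at log2 fold changes of 0.88, 1.43 and 0.49, whereas those of *Shh*, *Ptch1*, *Gli1* and *Hhip* were -0.36, 0.10, 0.75 and 0.73. Without acellular 15 mm replicate 3, 5 members were called, and without normal replicate 3 *Smo* was lost (adjusted p = 0.0531, edgeR). With only these 2 groups in the edgeR fit, *Gli2* alone was called (adjusted p = 0.0499), and *Gli3* and *Smo* had adjusted p of 0.0864 and 0.0511.

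In acellular 10 mm wounds 1 of 7 members rose, *Smo*, by 0.49 ± 0.12 on the log2 scale or 1.40-fold (adjusted p = 0.0184, edgeR), beside 20.3% of all genes (3125 genes). All genes called numbered 6196 with only these groups in the fit and 800 to 1853 with 1 library left out, fewest without acellular 10 mm replicate 1, so the members' share was not read against a fixed background. *Shh*, *Hhip*, *Gli1*, *Gli3*, *Gli2* and *Ptch1* had log2 fold changes of 3.66, 1.36, 1.22, 0.94, 0.52 and 0.27, with adjusted p of 0.110 to 0.711 in edgeR. The call of *Smo* was lost without acellular 10 mm replicate 1, acellular 10 mm replicate 3, normal replicate 1 or normal replicate 3 (adjusted p of 0.0525 to 0.0852, edgeR). Leaving out acellular 10 mm replicate 3 gave log2 values of -0.46 for *Shh* and -0.38 for *Ptch1*.

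In HDB 10 mm wounds 0 of 7 members were called by edgeR, beside 12.3% of all genes (1895 genes), although all 7 fitted changes were above 0 with a median of 0.64, against 0.02 over all genes. With 1 library left out, 78 (without normal replicate 3) to 2725 genes (without HDB 10 mm replicate 1) were called. *Smo* came closest at 0.39 ± 0.12 (adjusted p = 0.0541, edgeR). It was the single member at an unadjusted p under 0.05 and the single one called by DESeq2 (adjusted p = 0.0172), beside 4862 of all genes (31.6%) at an unadjusted p under 0.05 and 3321 called by DESeq2. The log2 fold changes of *Shh*, *Gli1*, *Hhip*, *Gli3*, *Gli2* and *Ptch1* were 1.50, 0.97, 0.96, 0.64, 0.48 and 0.23. Without HDB 10 mm replicate 3 that of *Shh* was -1.17 and that of *Ptch1* was -0.15.

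In HDB 15 mm wounds 0 of 7 members were called by edgeR, beside 5.18% of all genes (796 genes). All genes called numbered 237 with the replicate block, 3401 with only these groups in the fit, and 34 (without normal replicate 3) to 1340 (without HDB 15 mm replicate 2) with 1 library left out. *Gli2* had a log2 fold change of 1.16 ± 0.31 (adjusted p = 0.0507, edgeR), the single member at an unadjusted p under 0.05 and the single one called by DESeq2 (adjusted p = 0.00722), beside 4133 of all genes (26.9%) at an unadjusted p under 0.05 and 2370 called by DESeq2. When HDB 15 mm replicate 2 was left out, *Gli2* was called in edgeR as well (adjusted p = 0.0377). *Gli3*, *Gli1*, *Smo* and *Hhip* stood at 0.53, 0.52, 0.19 and 0.15, and *Shh* and *Ptch1* at -0.08 ± 2.01 and -0.13 ± 0.50. The median was 0.19, the lowest of the 4 wound groups, beside 0.02 over all genes. For *Gli2* the direct difference between HDB and acellular beads at 15 mm was -0.26 ± 0.31 (adjusted p = 0.636, edgeR), so a call in one comparison with normal skin and not in the other does not show a difference between the bead types.

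**Figure D4:**
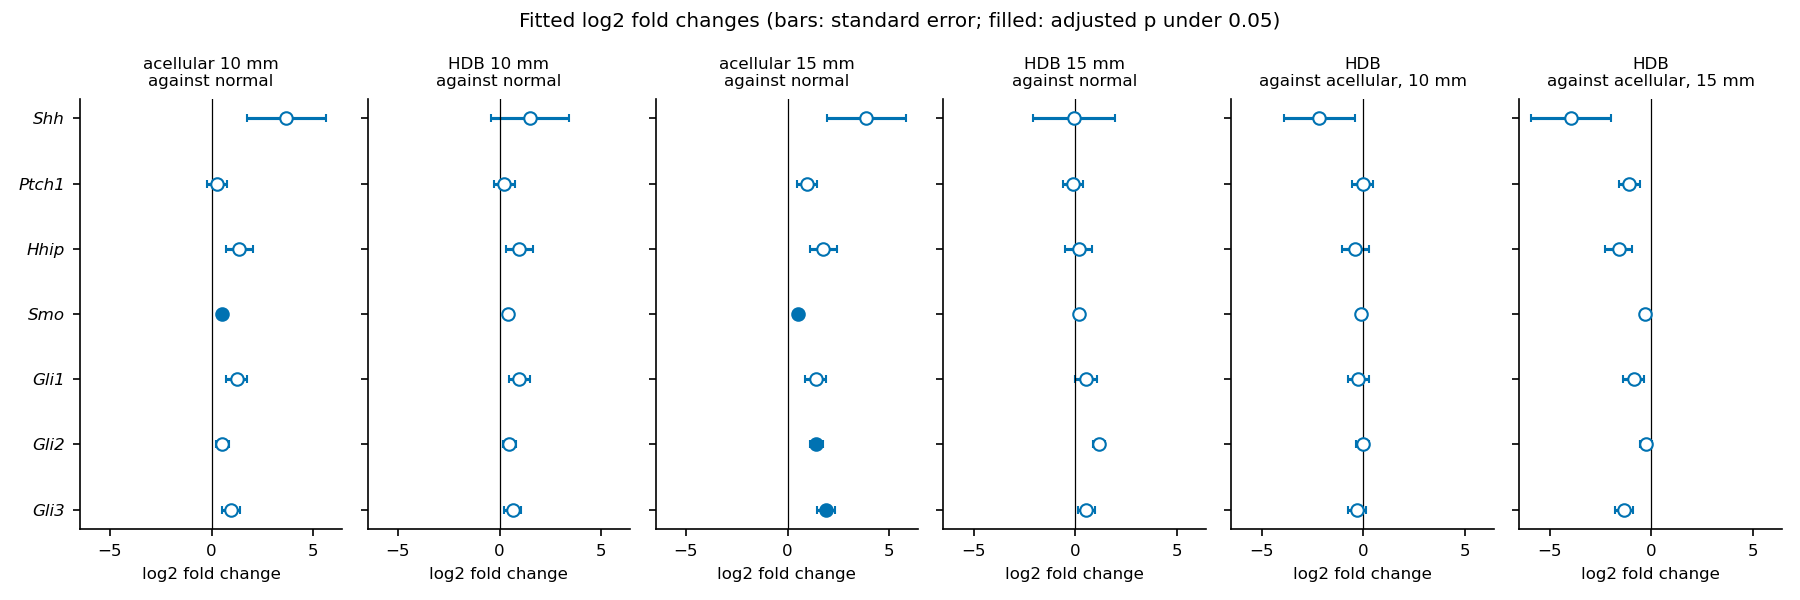
Fitted log2 fold changes of the 7 genes in the 4 comparisons with normal skin and in the comparisons of HDB with acellular beads at 10 mm and 15 mm, with bars of 1 standard error and filled points at an adjusted p under 0.05 (edgeR). Filled points are *Smo* in acellular 10 mm and *Smo*, *Gli2* and *Gli3* in acellular 15 mm against normal skin, and the bars of *Shh* are the widest.

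Other tissue transcripts differed between wounds and normal skin as well. The summed level of 7 skeletal muscle genes was 42317 to 50726 CPM in normal skin and 534 to 30225 CPM in the wound libraries, and that of 6 endothelial genes was 495 to 585 CPM against 88.0 to 375 CPM. The sum of 6 proliferation genes was 82.9 to 102 CPM in normal skin and 224 to 1382 CPM in wounds. Its highest libraries were the same as those of *Shh* and in the same order, acellular 15 mm replicate 1 (1382 CPM), acellular 10 mm replicate 3 (590 CPM) and HDB 10 mm replicate 3 (440.0 CPM), the last of them close to the 435 CPM of the next library. The edgeR test called all 6 higher after acellular beads of both wound sizes (2701 of the 15369 genes at 15 mm and 1501 at 10 mm). With HDB it called 5 higher at 10 mm (937 genes) and 1 at 15 mm (411 genes). In HDB 15 mm 5 of the 6 were at an unadjusted p under 0.05 (edgeR), beside 26.9% of all genes. DESeq2 called 3 of them there, and 2370 of all genes. Of the dermal fibroblast, adipocyte and macrophage genes, edgeR called 4 of 6, 5 of 5 and 4 of 5 lower in acellular 10 mm (1624 of all genes). The counts were 1, 0 and 3 in acellular 15 mm (1941 genes). They were 0, 0 and 2 in HDB 10 mm (958 genes), and 0 for each list in HDB 15 mm (385 genes). The part of any of these lists in the levels of the Hedgehog genes was not tested.

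The surrounding pathway was read from a list of 53 further genes, of which 50 passed the filter. Against normal skin, 15 were called higher and 3 lower in acellular 15 mm, 6 and 5 in acellular 10 mm, 4 and 3 in HDB 10 mm, and 3 and 0 in HDB 15 mm. These are 18, 11, 7 and 3 of 50 genes, beside 30.2%, 20.3%, 12.3% and 5.18% of all genes, so the list's shares were near the background. The medians over the list were 0.44, 0.13, 0.12 and 0.07 on the log2 scale, beside 0.06, 0.03, 0.02 and 0.02 over all genes. With 1 library left out the total counts were 10 to 25, 2 to 11, 0 to 6 and 0 to 6, and without acellular 15 mm replicate 1 the first of these was 16. With only the groups compared they were 4, 17, 10 and 17, and with the replicate block 14, 10, 1 and 0. Between HDB and acellular beads 0 of the 50 were called in edgeR at either size, with 1 and 16 at an unadjusted p under 0.05, beside 3.53% and 23.2% of all genes, and 0 and 8 called by DESeq2, which called 15 and 1792 of all genes. At 15 mm 14 of them were called without acellular 15 mm replicate 3, where 2322 of all genes were called, and 0 without acellular 15 mm replicate 1.

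*Scube2*, a secreted protein that helps release the lipid-anchored ligand, had the smallest adjusted p of the list in acellular 15 mm (log2 fold change 2.29 ± 0.34, adjusted p = 0.00263, edgeR). It rose by 1.43 ± 0.33 in HDB 10 mm (adjusted p = 0.0220, edgeR). *Ulk3*, a kinase that acts on Gli proteins, rose by 0.77 ± 0.14 in acellular 15 mm, by 0.63 ± 0.14 in acellular 10 mm and by 0.51 ± 0.14 in HDB 10 mm, with adjusted p of 0.00448, 0.0121 and 0.0355 in edgeR. *Tulp3*, an adaptor for traffic into cilia, rose by 1.10 in acellular 15 mm. Among the co-receptors *Boc* rose by 0.62 in acellular 10 mm, while the heparan sulphate proteoglycan *Gpc3*, which competes for the ligand, fell by 1.72 on the log2 scale there and fell by 1.30 in HDB 10 mm.

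*Btrc*, the F-box protein that marks Gli proteins for processing, fell by 0.90 in acellular 10 mm, fell by 0.84 in acellular 15 mm and fell by 0.77 in HDB 10 mm on the log2 scale. *Prkaca*, a catalytic subunit of protein kinase A, fell by 0.64 in acellular 15 mm and fell by 0.71 in HDB 10 mm. Of the listed targets, *Hsd11b1*, which encodes a glucocorticoid-activating enzyme, fell by 1.57 in acellular 10 mm and fell in acellular 15 mm to 0.436 of the fitted level of normal skin. *Sox9*, a follicle and outer root sheath factor that is also on the follicle marker list, rose by 1.99 in acellular 10 mm and by 1.84 in HDB 15 mm, and *Foxm1*, a driver of the cell cycle, rose by 1.55 in HDB 10 mm. In HDB 15 mm the other called genes were *Stk36* (1.27) and the ciliary motor subunit *Kif3a* (0.50). Only up to 3 called genes per comparison and direction were named, so these changes need not be particular to the group named. *Foxm1* averaged 21.2 CPM in acellular 10 mm and 19.2 CPM in HDB 10 mm. In acellular and HDB 15 mm, *Sox9* averaged 89.7 and 88.9 CPM, *Stk36* 4.54 and 3.77 CPM, and *Kif3a* 38.0 and 45.0 CPM. The genes named in the HDB groups were called under 4 to 10 of 13 alternatives, with adjusted p of up to 0.175 in HDB 10 mm and 0.168 in HDB 15 mm (edgeR). *Hsd11b1* and *Prkaca* in acellular 15 mm were called under 5 and 4 of 13, and the other genes named for the acellular groups under 10 to 13.

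The other ligands gave no counterpart to the high *Shh* libraries. *Dhh*, known from Schwann cells, averaged 9.23 ± 3.04 CPM in normal skin, 4.75 ± 1.38 in acellular 10 mm, 5.57 ± 3.59 in HDB 10 mm, 5.74 ± 2.90 in acellular 15 mm and 10.8 ± 2.6 CPM in HDB 15 mm (SD, n = 3 each). It was at 2.61 CPM in acellular 15 mm replicate 1, where *Shh* was highest. *Ihh* did not pass the filter, with group means of 0.193 to 0.344 CPM. The highest levels per kb in the other sublists were those of *Csnk1a1* (101 CPM per kb), *Gas1* (43.5), *Ccnd2* (35.0), *Grk2* (29.9) and *Scube2* (3.10), beside 1.70 for *Dhh*.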

How the data were processed

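RNA of 15 mouse skin samples was sequenced after poly(A) selection. The authors deposited 1 table of estimated counts per gene (RSEM), and the submitters' processing notes name HISAT2 2.0.4, Bowtie2 2.2.5, RSEM 1.2.12 and GRCm38.p6. Use of strand in counting is not given in the sources used here. Deposited estimated counts were rounded, and every column of the table was matched to a sample by title. Genes were filtered with filterByExpr, scaled by TMM and fitted in 1 model of 5 group means with the edgeR 4.0.16 quasi-likelihood test in R 4.3.3, with p-values adjusted by Benjamini-Hochberg over all 15369 genes and called under 0.05. Transcript lengths were taken from GENCODE for GRCm38, and gene coordinates and promoter windows from RefSeq. The study's tool, DESeq2 (1.42.0), was an alternative, as were other filters, removal of a trend with transcript length, a replicate block, fits of only the groups compared and leaving out each library. Likeness was the Pearson correlation of log2 CPM with a prior count of 2.

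The members and lists were chosen with earlier results of these data known. Named were the 7 members, up to 3 called pathway genes with the smallest adjusted p per comparison and direction, the highest gene of each list and the 3 genes most like each member, of which 1 gene is not reported here. Same-numbered replicates deviated together at 15 mm only (HDB and acellular, correlations of 0.397, 0.167 and 0.183), and the labels do not say what a number marks. No 2 libraries were identical. The fits were also run on simulated data with 200 changed genes, drawn from a single mean per gene over all libraries. Such data hold no library that stands apart across genes, so they say nothing on the weight of acellular 15 mm replicate 1.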

Additional observations from a re-analysis of the deposited data

How the results depend on the processing

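Of 809 values of the members' log2 fold changes under alternatives, 755 kept their direction and side of the threshold, 16 gained a call, 7 lost one and 31 turned in sign. The turns fell on 19 of 56 results, 16 of which turned when 1 library was left out and under no other alternative. The others were *Gli2* between HDB and acellular beads at 10 mm under the stricter filter (3.5e-05), *Gli2* in the interaction with the length trend removed (0.093, and 0.068 with the replicate block) and *Ptch1* in HDB 15 mm against normal skin with the length trend removed (0.059, and 0.032 with the replicate block). The cause was not tested.

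The number of members called was 1 in DESeq2 between HDB and acellular beads at 15 mm and 0 to 1 with 1 library left out. Against normal skin it was 2 in acellular 10 mm with only the groups compared and 0 to 1 with 1 library left out. In acellular 15 mm it was 5 in DESeq2, 1 with only the groups compared and 2 to 5 with 1 library left out. In HDB 10 mm it was 1 in DESeq2, under the stricter filter and with only the groups compared. In HDB 15 mm it was 1 in DESeq2, under the stricter filter and with the length trend removed, 2 with only the groups compared, and 0 to 1 with 1 library left out. With the replicate block the counts were those of the fit without it, 3 in acellular 15 mm and 1 in acellular 10 mm against normal skin and 0 in the other comparisons.

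Genes called between HDB and acellular beads at 15 mm were 450, against 1792 in DESeq2, 199 with no filter, 695 under the stricter filter, 179 with the replicate block, 0 with the length trend removed or with only the groups compared, and 0 to 2322 with 1 library left out.

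With 1 library left out, the log2 fold changes between HDB and acellular beads ranged at 10 mm from -4.83 to 1.96 (*Shh*), -0.42 to 0.61 (*Ptch1*), -0.84 to 0.48 (*Gli1*), -0.24 to 0.17 (*Gli2*) and -0.75 to 0.51 (*Hhip*), and at 15 mm from -4.53 to 0.29 (*Shh*) and -0.52 to 0.069 (*Gli2*). DESeq2 gave no adjusted p for *Shh*, whose values there count by direction alone. Over both sizes *Gli2* ranged from -0.28 to 0.017, and in the interaction *Shh* from -5.91 to 2.45, *Gli1* from -1.35 to 0.021 and *Gli2* from -0.49 to 0.10. Against normal skin *Shh* ranged from -0.46 to 4.22 in acellular 10 mm, -1.17 to 2.06 in HDB 10 mm, -0.36 to 4.46 in acellular 15 mm and -0.41 to 0.43 in HDB 15 mm. *Ptch1* ranged from -0.38 to 0.55 in acellular 10 mm and -0.15 to 0.50 in HDB 10 mm, and *Hhip* from -0.18 to 0.46 in HDB 15 mm.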
